A study of Mus musculus with 16 samples.

Results

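The small RNA fraction of mouse embryonic stem cells was compared between wild type and cells that lack Dnmt2, with every tRNA isoacceptor as the unit. The comparison uses the 6 libraries of RNA under 200 nt, 3 wild type (replicates 1, 2 and 3) and 3 Dnmt2-/- (replicates 1, 2 and 3), of the 16 libraries of the study. They were chosen by their titles. Both groups carry the J1 background, were grown on a layer of embryonic fibroblasts, and were freed of these feeder cells by letting the feeders attach to dishes. All 6 were depleted of rRNA, treated with bisulfite and sequenced. Whether replicates are separate cultures, clones or lines is not stated in the labels, and the p-values therefore reflect the scatter among these libraries alone, which may be technical. Reads lay on 182 tRNA gene references, which were summed into 51 isoacceptors by amino acid and anticodon.

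Dnmt2, encoded by Trdmt1, is a cytosine methyltransferase of tRNA. It is known to methylate position 38 in the anticodon loop of tRNA-Asp-GTC, tRNA-Gly-GCC and tRNA-Val-AAC, near the anticodon, where tRNAs are cut under stress. Nsun2 methylates the variable loop of many tRNAs and the wobble base of tRNA-Leu-CAA, and Nsun6 the acceptor stem of tRNA-Cys and tRNA-Thr. Bisulfite converts unmethylated cytosine and leaves 5-methylcytosine, so the percentage of reads that kept a cytosine (non-conversion) was read as the methylation level. Positions are numbered linearly from 1, starting at the 5′ base of the gene reference. Position 38 of tRNA-Gly-GCC is thus linear position 37.

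Summed coverage, which counts a read once for each cytosine it covers, was 25431862 to 55009793 per library, over 2886 to 3298 listed cytosines. Replicate 3 of both genotypes stood apart from replicates 1 and 2 in the make-up of the tRNA pool, and knockout replicate 3 was the deepest library. Results are therefore given with and without replicate 3 where it changes a call or a direction. Non-conversion over cytosines at 10% or less, the background of a library, averaged 1.89% ± 0.155 in wild type against 1.97% ± 0.164 for the knockout libraries (SD, n = 3, two-sided p = 0.6 by an exact permutation test). These cytosines were picked in each library by their own level. The main copies of position 38 in the Dnmt2 substrates therefore entered the background of the knockout libraries alone. The small libraries list no mRNA, so cell identity was checked in the rRNA-depleted long libraries with the same genotype labels. There 7 to 8 of 8 embryonic stem cell markers were listed, at a summed coverage of 4200 to 6581 per 1000000 of the library's coverage. Of 8 fibroblast markers 5 to 6 were listed, at 141 to 253 per 1000000 in wild type and 84.8 to 146 in the knockout. Postn and Lum were at 0 in all 6 and Dcn in 5 of the 6, and Col1a1 and Col1a2 were listed in each. Among the stem cell markers Esrrb was at 0 in wild type replicates 1 and 3 and knockout replicates 2 and 3. It stood at 0.251 in wild type replicate 2 and 0.319 in knockout replicate 1. Nanog was at 1.11 to 5.06 per 1000000, below Col1a1 and Col1a2 in each library. A part of feeder cells in the results below was not tested. Trdmt1 was listed at 5.98 to 9.27 per 1000000 in wild type and 1.01 to 2.85 in the knockout, where no cytosine past transcript position 142 was listed.

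No isoacceptor passed the test for a change in its share of the tRNA pool (edgeR, quasi-likelihood, Benjamini-Hochberg adjusted). Of 49 isoacceptors tested, 0 passed (0% of those tested), and 0 reached an unadjusted p under 0.05. The fit with replicate number as a block also called 0, with 8 at an unadjusted p under 0.05. TMM scaling called 0, with 3 at an unadjusted p under 0.05, while DESeq2 called 1, tRNA-Ala-TGC, higher in the knockout. Shares are parts of a whole, so a change in a large isoacceptor would move the others. An isoacceptor with more cytosines also weighs more, so the order of the shares is one of coverage, not of molecules. In bulk RNA, less of a tRNA per cell and fewer cells of a type cannot be told apart.

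tRNA-Glu-TTC and tRNA-Asp-GTC together held most of the coverage. The share of tRNA-Glu-TTC, which carries glutamate, was 34.4%, 35.3% and 48.4% in wild type replicates 1, 2 and 3 against 40.2%, 35.5% and 51.9% in the knockout. That of tRNA-Asp-GTC, the aspartate tRNA and best covered Dnmt2 substrate, was 35.8%, 33.8% and 29.2% against 28.6%, 33.2% and 25.1%. In each pair of the same number the knockout value of tRNA-Asp-GTC was the lower one, but the groups overlapped. The same order was seen in isoacceptors that are not named substrates, among them tRNA-Met-CAT, tRNA-His-GTG, tRNA-Arg-CCG, tRNA-Arg-CCT, tRNA-Ser-TGA and tRNA-Ser-CGA. tRNA-Glu-TTC and tRNA-Ile-AAT were among those higher in each such pair. The share of isoacceptors with either order was not counted. The log2 difference was -0.18 with a standard error of 0.17 (edgeR adjusted p = 0.975). Without knockout replicate 3 it was -0.092 and without knockout replicate 2 -0.29, with no call in either.

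The other 2 Dnmt2 substrates also overlapped between genotypes. tRNA-Gly-GCC stood at 6.02%, 5.97% and 4.65% in wild type against 5.30%, 5.64% and 3.84% in the knockout. The knockout value of tRNA-Gly-GCC was the lower one in each same-numbered pair, an order also seen in isoacceptors that are not named substrates. Its log2 difference of -0.17 (standard error 0.21) was -0.020 without knockout replicate 3 and -0.28 without wild type replicate 3. tRNA-Val-AAC stood at 0.266%, 0.272% and 0.180% against 0.234%, 0.314% and 0.134%. Its log2 difference of -0.073 (standard error 0.34) became 0.028 without replicate 3 of both genotypes. Among the glycine isoacceptors tRNA-Gly-GCC took 45.0% ± 3.41 (SD, n = 3) of the coverage in wild type and 41.3% ± 2.17 in the knockout, tRNA-Gly-CCC 35.4% ± 1.76 and 37.4% ± 2.59, and tRNA-Gly-TCC 19.5% ± 1.79 and 21.4% ± 0.492. Among the valine isoacceptors tRNA-Val-TAC held 67.0% ± 2.38 and 70.8% ± 3.86.

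tRNA-Met-CAT, an anticodon shared by initiator and elongator methionine tRNAs, showed how far replicate 3 stood from the rest. Its share was 4.39%, 5.84% and 0.655% in wild type against 4.34%, 4.77% and 0.506% in the knockout. Replicate 3 was low in both genotypes and the genotypes overlapped. The rest of the 10 largest shares were tRNA-Gly-CCC (4.34% ± 0.287 and 4.51% ± 1.16, SD, n = 3), tRNA-Gly-TCC (2.39% ± 0.084 and 2.55% ± 0.495) and tRNA-Lys-CTT (2.13% ± 0.223 and 2.34% ± 0.0752). They were followed by tRNA-Ile-AAT (1.41% ± 0.277 and 1.85% ± 0.513), tRNA-Leu-AAG (1.34% ± 0.332 and 1.56% ± 0.123) and tRNA-Val-TAC (1.01% ± 0.359 and 1.06% ± 0.355).

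**Figure D1:**
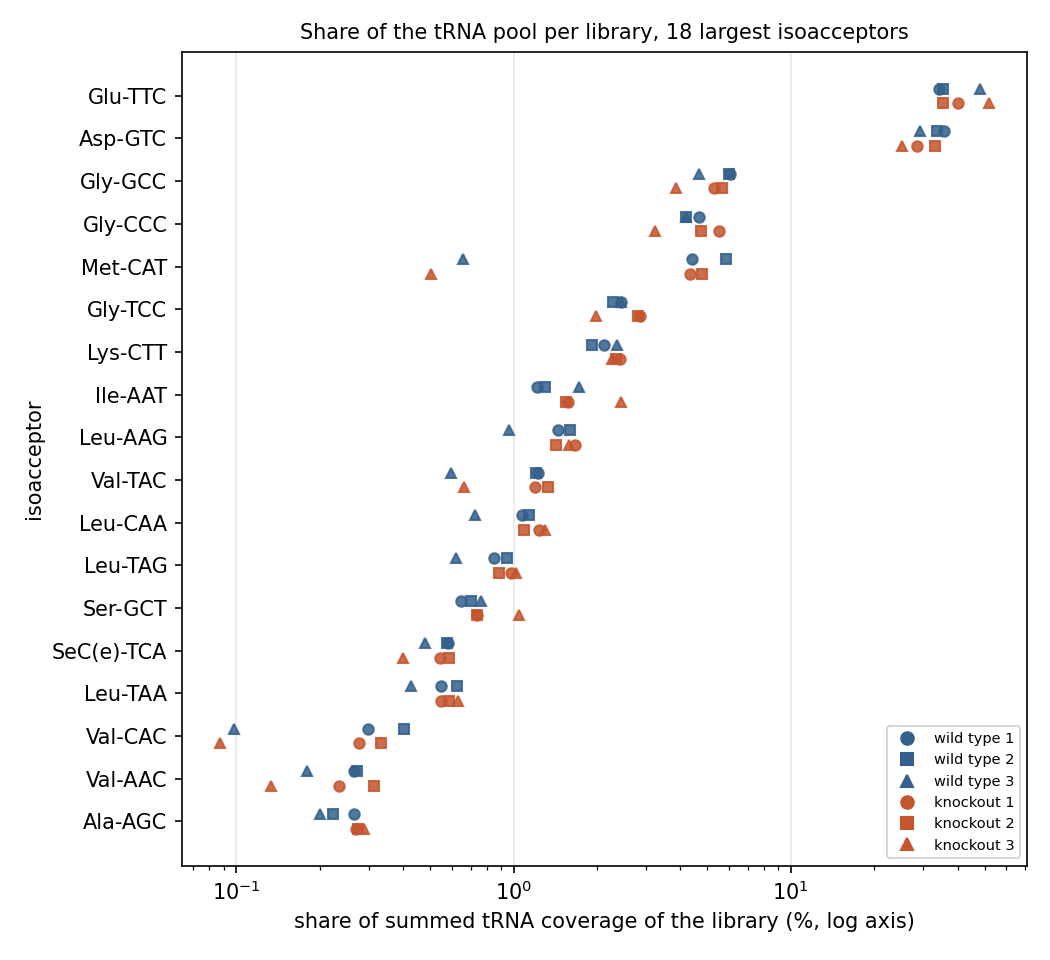
Share of the summed tRNA coverage of each library (%, log axis) for the 18 isoacceptors with the largest wild-type share; each point is 1 library, colour is genotype and shape is replicate number. For tRNA-Met-CAT the triangles of replicate 3 lie apart from replicates 1 and 2 in both genotypes, at 0.655% and 0.506%, while the genotypes overlap for tRNA-Asp-GTC and tRNA-Glu-TTC.

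The groups did not overlap for 4 of the 49 isoacceptors (8.16% of those tested). tRNA-Ala-AGC (wild type 0.230% ± 0.033, knockout 0.278% ± 0.0108, SD, n = 3) and tRNA-Thr-AGT lay higher in the knockout, and tRNA-Ser-TGA and tRNA-Ser-CGA lower. None of these 4 passed the edgeR test (adjusted p = 0.975 for each). By amino acid the groups did not overlap for 1 of 23 families (4.35%), the alanine tRNAs. Families were not tested.

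Position 38 of the 3 Dnmt2 substrates was highly methylated in every wild-type library and under 5% in every knockout library. In tRNA-Asp-GTC non-conversion was 91.0%, 90.9% and 93.4% in wild type against 3.16%, 3.03% and 3.19% in the knockout, at 415103 reads or more. In tRNA-Gly-GCC, at linear position 37, it was 81.5%, 82.3% and 81.2% against 3.89%, 3.81% and 4.40%. In tRNA-Val-AAC it was 87.1%, 85.3% and 88.5% against 1.81%, 2.27% and 3.14%. No library of one genotype came near the other. The knockout values of tRNA-Asp-GTC and tRNA-Gly-GCC lay above the background of their own libraries (1.95%, 1.82% and 2.14%), a set that holds these positions too. All 3 positions passed the edgeR test (adjusted p = 4.46e-09, 4.46e-09 and 3.96e-08). The 3 pooled differed by -87.2 percentage points (p = 0.1 two-sided by an exact permutation test, which cannot go lower with 3 libraries a side).

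Over all isoacceptors, 4 of 128 tested positions fell in the knockout (3.12% of those tested) and 0 rose (edgeR adjusted p under 0.05), and 10 had an unadjusted p under 0.05. Tested positions had at least 10 reads in each library and averaged at least 5% non-conversion. With the replicate number as a block 8 fell and 0 rose. The 4 added were tRNA-Ala-TGC 39, tRNA-Pro-CGG 47 and 49 and tRNA-Gln-TTG 48, and tRNA-Ala-TGC 39 and tRNA-Pro-CGG 47 and 49 were also called without replicate 3 of both genotypes. Without replicate 3 of both genotypes, 11 of 137 fell and 2 rose, from 2 libraries each. The median difference over all 128 was -0.404 percentage points, and 77 of the 128 were negative. The groups did not overlap at 23 of the 128 (18% of those tested), 15 lower and 8 higher in the knockout.

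**Figure D2:**
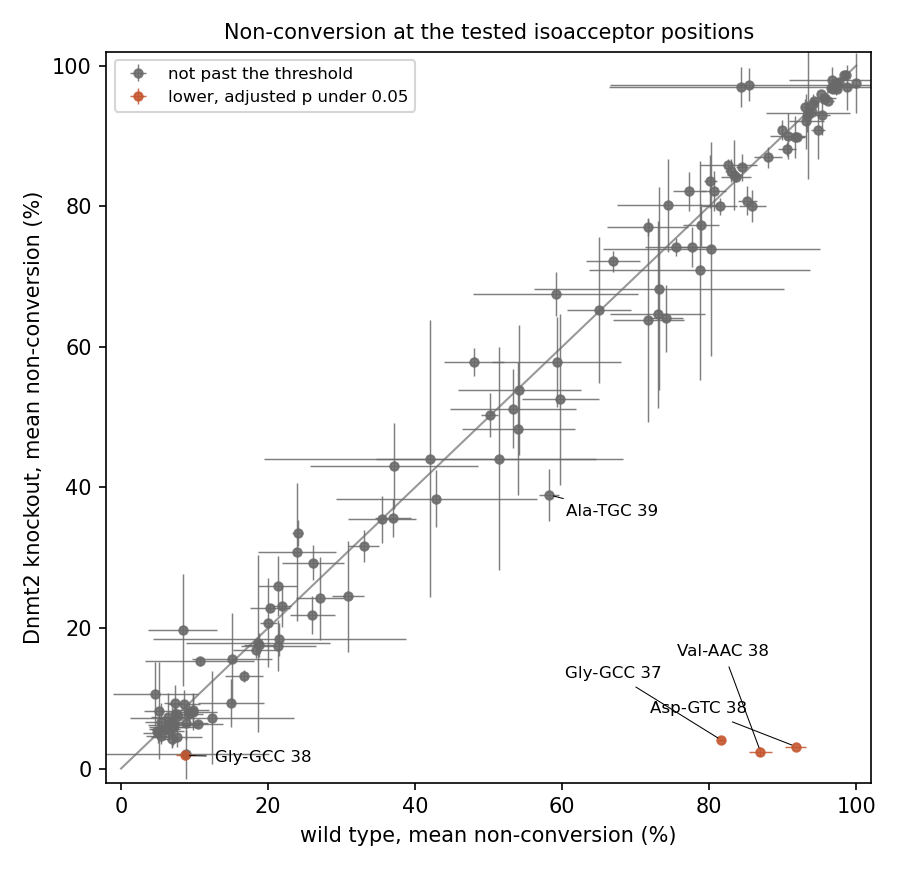
Mean non-conversion (%) in wild type (horizontal) and in the knockout (vertical) at the 128 tested isoacceptor positions; bars are the SD of 3 libraries and the line marks equal levels. The 3 Dnmt2 positions lie at the lower right, tRNA-Gly-GCC 38 lies low near 8.75% and 1.86%, and tRNA-Ala-TGC 39 (58.3% and 38.9%) is labelled though it did not pass.

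The fourth position that fell was the neighbouring cytosine of tRNA-Gly-GCC at linear position 38. Non-conversion was 9.73%, 9.31% and 7.22% in wild type against 2.45%, 1.90% and 1.22% in the knockout, and the groups did not overlap (edgeR adjusted p = 0.00164). The cytosine is listed in 1 gene copy alone, chr4.trna1314 (mm9 chromosome 4, 132670411 to 132670481, minus strand). The reads on that copy moved with genotype as well. They made up 0.307%, 0.217% and 0.137% of tRNA-Gly-GCC coverage in wild type against 0.761%, 0.738% and 1.01% in the knockout, and reads at the site rose from 514, 419 and 180 to 1390, 1210 and 2380. A fall in methylation and a change in which reads were placed on this copy cannot be told apart here. Near-identical copies can share reads, so values of single copies are uncertain. Without any 1 wild-type replicate its mean lay under the 5% minimum and it was not tested; at a minimum of 1% it was called without each replicate in turn.

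tRNA-Ala-TGC, an alanine tRNA, had the largest negative difference that did not pass, at linear position 39 of chr13.trna68. The values were 59.8%, 57.1% and 57.9% in wild type against 39.2%, 35.1% and 42.5% in the knockout, on 76 to 199 reads. The groups did not overlap, but the edgeR adjusted p was 0.100. It was 0.0091 with the replicate block and 0.0083 without replicate 3 of both genotypes.

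A lower minimum, a mean non-conversion of 1% or more, admitted 790 positions. Of these 5 fell (0.633% of those tested) and 1 rose (0.127%), and with the replicate block 15 fell and 10 rose. All 10 rises with the block lay in Dnmt2 substrates. They were tRNA-Asp-GTC 40, 60, 61 and 62, tRNA-Gly-GCC 31, 35, 46, 54 and 64, and tRNA-Val-AAC 6. tRNA-Asp-GTC and tRNA-Gly-GCC are among the isoacceptors with the most coverage, where small differences can be called. tRNA-Gly-GCC 31 and 54 rose by 0.325 and 0.495 percentage points, at 64946 and 45020 reads or more. How many of the 790 positions lie in the substrates was not counted. The positions named from this setting were chosen after their values were seen. The new rise was in tRNA-Asp-GTC, at position 40, a little 3′ of the Dnmt2 site. Non-conversion there was 2.08%, 2.04% and 2.57% in wild type against 5.12%, 5.30% and 6.30% in the knockout, at 467354 reads or more (edgeR adjusted p = 0.000113). Every knockout library lay above every wild-type library, and the call was made without each replicate in turn. The rise was unequal between the main copies. The mean went from 2.32% to 5.93% in chr10.trna851 (mm9 chromosome 10, 92915723 to 92915794, minus strand), which held 91.9% of the reads at the position, and from 1.15% to 1.62% in chr10.trna856. A part of conversion efficiency or read placement in this difference was not tested.

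Without the block, the new fall was in tRNA-Val-CAC at linear position 38, the position that Dnmt2 methylates in tRNA-Val-AAC. Its values were 3.27%, 2.97% and 4.29% in wild type against 1.05%, 1.17% and 1.24% in the knockout (edgeR adjusted p = 0.000517, also called without each replicate in turn). The copy with 64.5% of the reads, chr11.trna204 (mm9 chromosome 11, 48632044 to 48632116, plus strand), stood at 2.74% ± 0.128 (SD, n = 3) and 1.21%. The copy chr13.trna964, with 2.30% of the reads, stood at 38.9% ± 4.24 and 1.85%, and chr6.trna10, with 0.911%, at 16.6% and 3.34%. The copies chr13.trna97 (18.8% of the reads) and chr13.trna98 (13.5%) stood at 1.85% and 1.77% in wild type. These lay below the wild-type background mean of 1.89%, and in the knockout they were 0.947% and 0.892%. A part of read placement between copies in this fall was not tested. tRNA-Val-TAC, the remaining valine isoacceptor, lay below the background mean at its position 38 in both genotypes (1.04% and 1.12%).

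In tRNA-Gly-CCC, at linear position 37 as in tRNA-Gly-GCC, the values were 4.72%, 4.61% and 5.37% in wild type against 2.07%, 2.78% and 3.45% in the knockout. The groups did not overlap, but the edgeR adjusted p was 0.121. It passed with the replicate block and without knockout replicate 3 (edgeR adjusted p = 0.0248). These values rest on a small part of the isoacceptor's reads, 1956 or more per library against 27872 or more at its position 46. The copy chr3.trna752 held 90.4% of the reads at position 37, at 4.48% in wild type and 2.57% in the knockout. A part of read placement between copies in this difference was not tested.

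**Figure D3:**
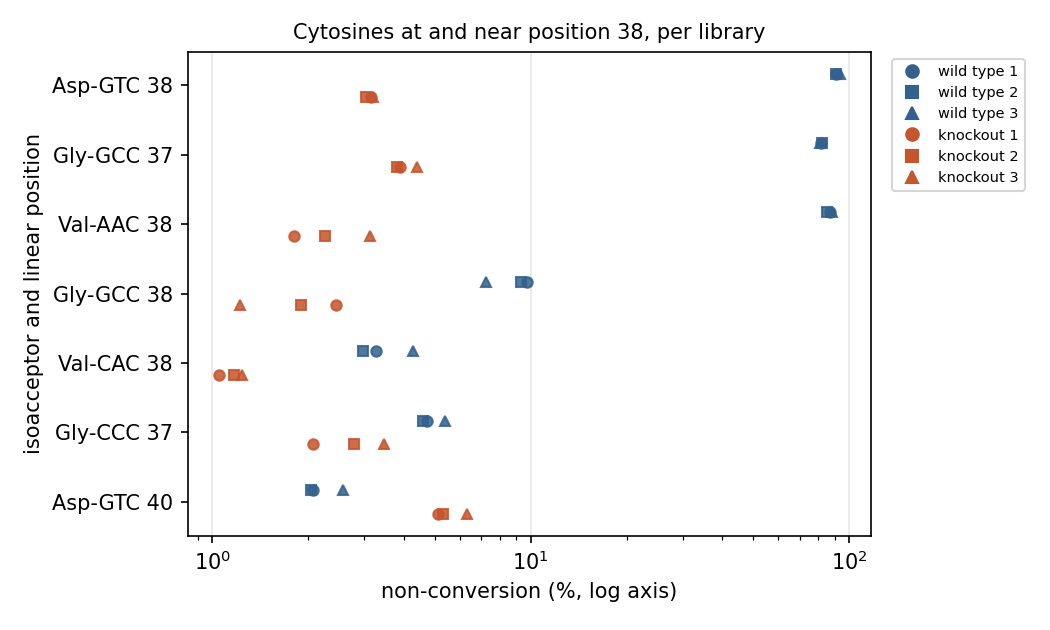
Non-conversion (%, log axis) in each library at cytosines at and near position 38, with colour for genotype and shape for replicate number. The 3 upper rows fall from above 80% to under 5%, the next 3 lie lower in the knockout at levels under 10%, and tRNA-Asp-GTC 40 lies higher in all 3 knockout libraries.

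Most methylated positions were shared between the genotypes. Counting positions at 20% or more in all 3 libraries of a genotype, 84 were methylated in wild type, 81 in the knockout and 78 in both. In each genotype 40 of the 48 covered isoacceptors had at least 1 such position, and 8 had none in either, among them tRNA-Trp-CCA, tRNA-Asn-GTT and the selenocysteine tRNA SeC(e)-TCA. Linear position 48 was methylated in 21 of 32 isoacceptors that have a covered cytosine there, in each genotype, position 49 in 17 of 28 (16 in the knockout) and position 47 in 7 of 19. Position 57 was methylated in 6 of 13.

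The variable-loop positions attributed to Nsun2 held 89 covered cytosines in 33 isoacceptors, chosen by a window of linear positions that may reach past the loop. Of the 62 tested, 0 fell and 0 rose, with a median difference of -0.285 percentage points, against -0.404 over all tested positions. With the replicate block 3 fell. Without replicate 3 of both genotypes 5 fell (tRNA-Ala-AGC 48, tRNA-Gly-TCC 49 and tRNA-Pro-CGG 47, 48 and 49) and 2 rose (tRNA-Gly-GCC 46 and tRNA-Lys-CTT 48). Of the 10 highest positions in wild type, 7 lay in this window. tRNA-Val-TAC 48 led at 98.8%, 98.7% and 98.5% in wild type against 98.8%, 98.9% and 98.4% in the knockout, and tRNA-Lys-CTT 48 followed (98.4% ± 0.202 and 98.7% ± 0.0377, SD, n = 3). The others in the window were tRNA-Gln-CTG 48 (97.4% ± 0.142 and 96.6% ± 0.127), tRNA-Asp-GTC 48 (97.3% ± 0.375 and 97.6% ± 0.283), tRNA-Val-TAC 49 (97.2% ± 0.655 and 97.0% ± 1.20), tRNA-Gly-GCC 47 (97.1% ± 0.154 and 97.1% ± 1.01) and tRNA-Glu-TTC 48 (96.9% ± 0.175 and 96.6% ± 0.497). None of these 7 passed on all 6 libraries, and tRNA-Lys-CTT 48 passed without replicate 3 of both genotypes (edgeR adjusted p = 0.0348).

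The 3 others of the 10 highest were in tRNAs with a long variable arm, tRNA-Leu-TAA 58 (97.7% ± 0.164 and 97.6% ± 0.146, SD, n = 3), tRNA-Leu-AAG 57 (97.4% ± 0.0833 and 97.3% ± 0.274) and tRNA-Ser-GCT 57 (97.2% ± 0.674 and 97.4% ± 0.581). These too did not pass.

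The wobble cytosine of tRNA-Leu-CAA, at linear position 35, was at 74.8%, 79.1% and 78.0% in wild type against 80.2%, 85.3% and 80.9% in the knockout. The knockout libraries lay above the wild-type ones, but the edgeR adjusted p was 0.67. At the acceptor stem of the Nsun6 substrates 4 of 9 covered positions were tested, 0 passed, and all 4 differences were negative. Their median was -4.52 percentage points, against -0.404 over all 128 tested positions, of which 77 were negative. tRNA-Thr-TGT 72 and tRNA-Thr-CGT 71, on 720 and 1725 reads or more, differed by -1.81 and -1.56 points. The larger differences, at tRNA-Thr-AGT 73 and tRNA-Cys-GCA 71, rest on 64 and 14 reads or more. tRNA-Thr-TGT 72 stood at 91.1%, 90.7% and 93.1% in wild type against 86.5%, 90.5% and 92.4% in the knockout. tRNA-Thr-CGT 71 was at 78.9% ± 2.48 and 77.3% ± 3.02 (SD, n = 3), tRNA-Thr-AGT 73 at 59.8% ± 5.24 and 52.5% ± 12.1, and tRNA-Cys-GCA 71, on 14 reads or more, at 74.1% ± 2.31 and 64.0% ± 4.73.

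**Figure D4:**
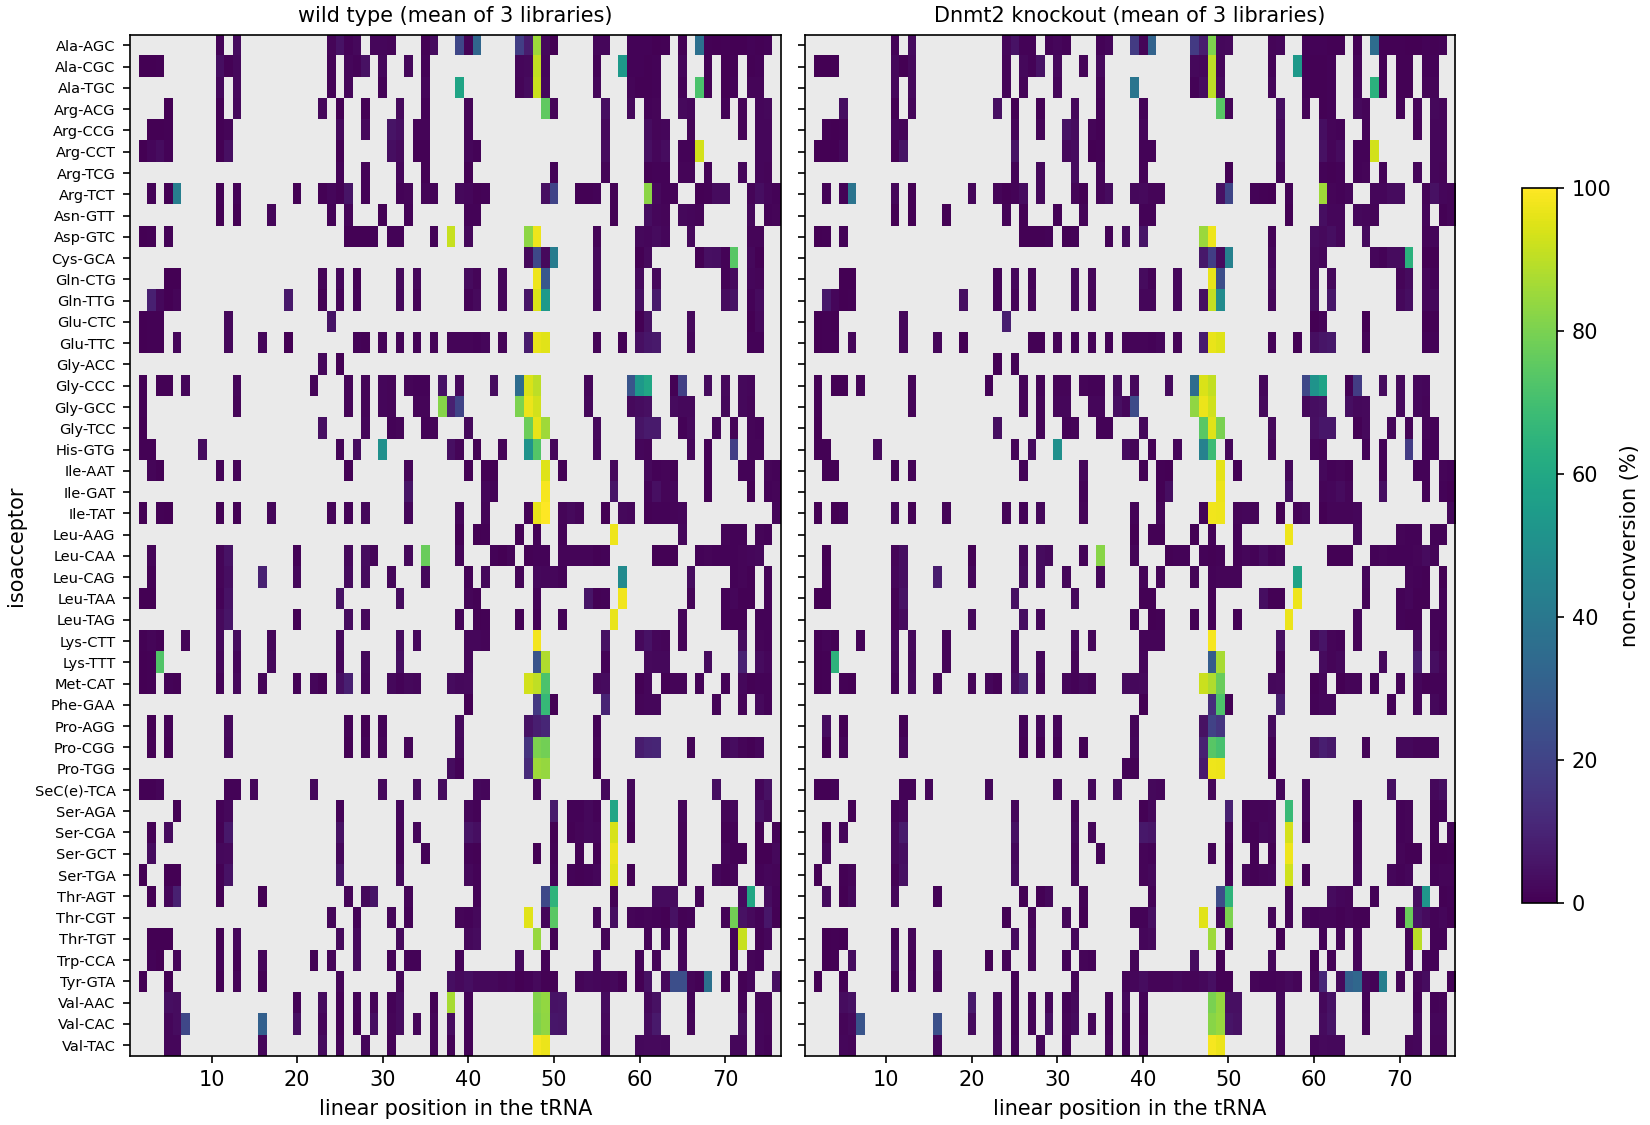
Mean non-conversion (%, colour) of each isoacceptor (rows) at each linear position up to 76 (columns) in wild type and in the knockout; grey marks positions with no covered cytosine. The bright column around positions 47 to 49 is present in both panels, and the signals of tRNA-Asp-GTC 38, tRNA-Gly-GCC 37 and tRNA-Val-AAC 38 are seen in the wild-type panel alone.

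Summed over all its cytosines, total non-conversion fell in 4 of 49 isoacceptors (8.16% of those tested) and rose in 1 (2.04%) in the edgeR test. With the replicate block it fell in 6 and rose in 2. The block added falls of tRNA-His-GTG and tRNA-Pro-CGG and a rise of tRNA-Ser-CGA (edgeR adjusted p = 0.0255, 0.0252 and 0.0130). The 3 Dnmt2 substrates were among the falls. tRNA-Asp-GTC went from 17.9%, 17.7% and 18.5% to 13.5%, 13.9% and 14.8% (edgeR adjusted p = 0.00682, and 0.0530 without knockout replicate 1). tRNA-Gly-GCC went from 18.5%, 18.4% and 17.7% to 14.9%, 15.1% and 14.2% (edgeR adjusted p = 0.00208). tRNA-Val-AAC went from 12.1%, 12.4% and 12.2% to 9.71%, 9.34% and 8.60% (edgeR adjusted p = 0.00208). In none of the 3 did the genotypes overlap. With position 38 left out these totals were 13.6% ± 0.391 and 14.8% ± 0.678 (SD, n = 3), 14.8% ± 0.457 and 15.3% ± 0.502, and 7.82% ± 0.541 and 9.57% ± 0.635, and none passed (edgeR adjusted p = 0.706, 0.846 and 0.0748). Without that position tRNA-Asp-GTC and tRNA-Val-AAC lay higher in the knockout with no overlap of the groups, while tRNA-Gly-GCC overlapped.

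Without the block, the remaining fall was tRNA-Ala-AGC. It stood at 4.21%, 3.70% and 3.91% in wild type against 2.96%, 3.40% and 3.13% in the knockout (edgeR adjusted p = 0.0214). The rise was tRNA-Ser-TGA, at 5.12%, 4.78% and 4.54% against 6.03%, 6.04% and 6.01% (edgeR adjusted p = 0.0155). A total also moves when reads shift along the tRNA or between gene copies. The copy chr13.trna112 held 26.0%, 21.3% and 14.9% of tRNA-Ser-TGA coverage in wild type against 54.0%, 44.5% and 32.6% in the knockout. Of tRNA-Ala-AGC coverage chr13.trna94 held 62.9%, 65.2% and 61.2% against 71.5%, 68.3% and 71.4%. Neither pair of groups overlapped, and the part of this in the totals was not tested. With each position held at a fixed weight tRNA-Ala-AGC stood at 3.66% ± 0.122 and 3.47% ± 0.121 (SD, n = 3) and tRNA-Ser-TGA at 5.59% ± 0.224 and 5.47% ± 0.0606, and neither passed in limma (adjusted p = 0.672 and 0.707). Both calls were also lost without replicate 3 of both genotypes (edgeR adjusted p = 0.168 and 0.0625), where tRNA-Gly-TCC fell (edgeR adjusted p = 0.0289).

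To see whether reads were placed differently along the tRNAs, coverage at linear positions up to 33 was set against that from 40 on. Of 40 isoacceptors tested, 0 passed in edgeR (0% of those tested), 2 had an unadjusted p under 0.05, and with the replicate block 0 passed and 5 had an unadjusted p under 0.05. Without wild type replicate 2, 1 fell, tRNA-Pro-AGG. The 5′ share did not overlap between genotypes in 5 of the 40 (12.5% of those tested), of which 4 were lower in the knockout (10%). In tRNA-Asp-GTC the 5′ share was 23.3%, 23.7% and 21.8% in wild type against 21.2%, 20.1% and 18.2% in the knockout (edgeR adjusted p = 0.614). In tRNA-Val-AAC it was 65.0%, 58.7% and 69.7% against 51.7%, 52.0% and 58.1% (edgeR adjusted p = 0.614). All knockout values lay below the wild-type ones in both. In tRNA-Gly-GCC the genotypes overlapped, at 41.7%, 39.7% and 42.1% against 41.3%, 43.0% and 40.8%. The other non-overlapping isoacceptors were tRNA-Ala-AGC and tRNA-Pro-AGG, lower in the knockout, and tRNA-Ala-TGC, higher. Full-length tRNA and fragments were not separated, so the share does not count tRNA fragments.

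Along tRNA-Asp-GTC coverage was low at the 5′ end and rose across the anticodon stem. Position 2 held 0.264% ± 0.0497 (SD, n = 3) of its coverage in wild type and 0.265% ± 0.104 in the knockout, position 32 held 4.36% ± 0.0602 and 3.84% ± 0.118, and position 47 held 6.42% ± 0.0769 and 6.67% ± 0.128. tRNA-Val-AAC ran the other way, from 10.2% ± 0.661 and 8.46% ± 0.849 at position 25 to 1.79% ± 0.572 and 2.64% ± 0.226 at position 74. tRNA-Gly-GCC declined gently, from 5.49% ± 0.212 and 5.68% ± 0.156 at position 2 to 3.53% ± 0.0986 and 3.51% ± 0.158 at position 73.

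**Figure D5:**
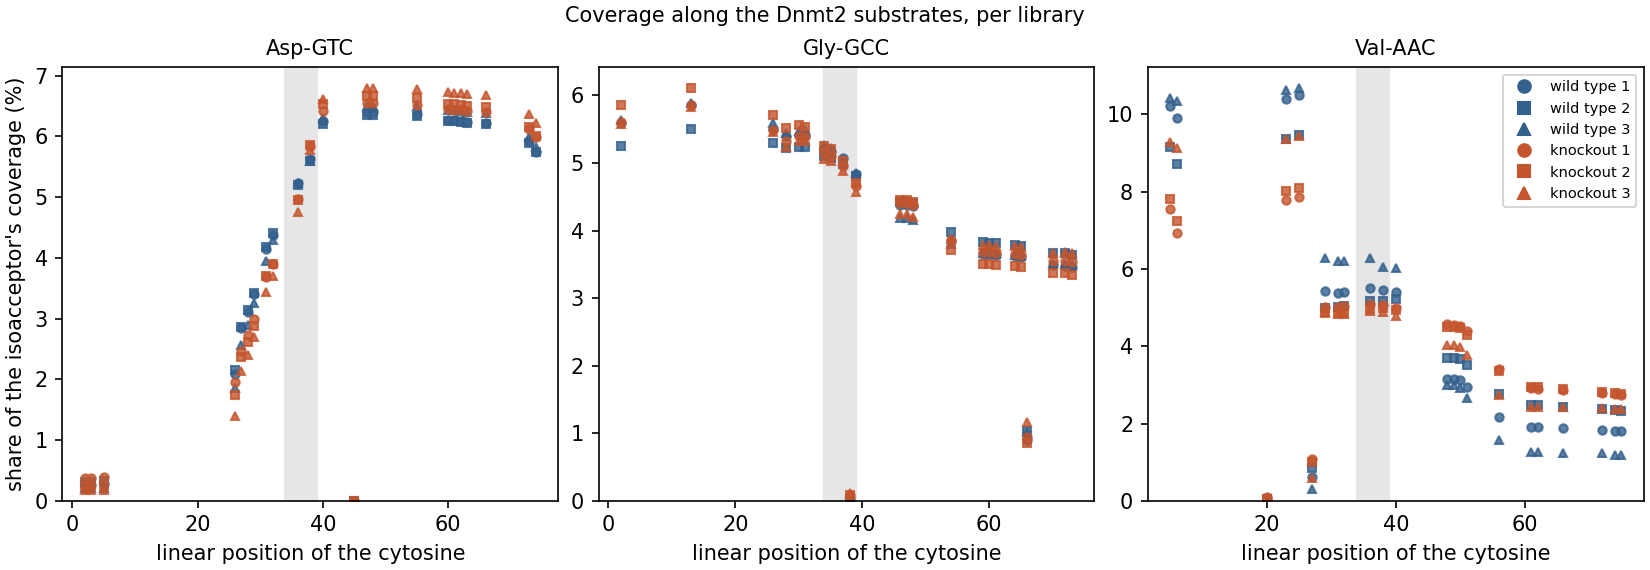
Share of an isoacceptor's coverage (%) at each of its cytosines (linear position, horizontal) in the 3 Dnmt2 substrates; each point is 1 library, colour is genotype, shape is replicate number and the grey band separates the 5′ and 3′ sides. Points near 0 between high ones are cytosines held by a minor gene copy. Coverage rises along tRNA-Asp-GTC and falls along tRNA-Val-AAC and tRNA-Gly-GCC in both genotypes.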

How the data were processed

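Per the file headers, the deposited files give, for each cytosine of a tRNA gene reference, the coverage, a count of reads, and an unconversion ratio (a fraction between 0 and 1). The authors used BSMAP and mm9, per the submitters' processing notes. Its version is not given in the sources used here, nor are filters. The lowest listed coverage was 3, and an unlisted cytosine was taken as 0. Coverage times ratio was whole within 0.01 in all entries, which gave non-converted counts. Reads have no molecular identifiers, so they are not independent molecules.

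Counts were summed over gene copies per anticodon. The pool test (summed coverage of 100 or more in 3 libraries, library total as size) and the tests of non-converted against converted or 5′ against 3′ counts (library terms and the interaction with genotype) used edgeR 4.0.16 in R 4.3.3, on all 6 libraries, with Benjamini-Hochberg adjusted p under 0.05. DESeq2 1.42.0 and limma 3.58.1 (log2 of coverage per 1000000 plus a pseudocount of 1, or log2 odds) were alternatives. The 5′ share test was not simulated. The pool, site and total tests were checked on simulated data with known answers, drawn without a shared shift of same-numbered libraries. There the pool test also called many unchanged isoacceptors when the changed ones moved the library total, and few when the total was held fixed: it reads shares, not amounts.

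Named were the 10 largest shares, the substrates, all positions and isoacceptors past the threshold, the list positions, and the 10 highest wild-type positions at 1000 reads or more. The members and lists were chosen with earlier results of these data known. The labels do not say that replicate numbers pair libraries. In the data same-numbered libraries deviated together (r = 0.697, 0.746 and 0.845 for the pool, 0.497, 0.391 and 0.592 for sites), so blocked fits are given where they change a call.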

Additional observations from a re-analysis of the deposited data

How the results depend on the processing

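The fall at position 38 of the 3 substrates was called under each alternative run. With the replicate block 8 sites fell and totals rose in 2 isoacceptors; it changed no call in the pool or the 5′ share. Site falls numbered 39 when counts were summed per genotype for Fisher's exact test, where library scatter plays no part, and 11 without replicate 3 of both genotypes, and 3 to 4 when single libraries were left out. Site rises numbered 18 with Fisher's test, 2 without replicate 3 of both genotypes, and 1 with a minimum of 1%, with no minimum, and with a quasi-binomial model. DESeq2 called 1 isoacceptor higher in the pool. Totals fell in 0 and rose in 0 without position 38, rose in 2 with the largest copy alone, and rose in 0 without replicate 3 of both genotypes or with fixed position weights. Leaving out single libraries gave 2 to 4 total falls (2 without knockout replicate 1), 0 to 1 total rises (0 without wild type replicate 2 or knockout replicate 1) and 0 to 1 falls of the 5′ share.

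Directions turned as follows, without a call in any case. With the largest coverage per gene copy the log2 pool difference was -0.025 for tRNA-Gly-CCC, -0.072 for tRNA-Gly-TCC and -0.013 for tRNA-Val-TAC, and without replicate 3 of both genotypes 0.028 for tRNA-Val-AAC. Without single libraries it ran from -0.055 to 0.29 (tRNA-Glu-TTC), -0.12 to 0.24 (tRNA-Gly-CCC), -0.67 to 0.34 (tRNA-Met-CAT), -0.19 to 0.33 (tRNA-Val-TAC) and -0.38 to 0.20 (tRNA-Val-AAC). Site differences in percentage points ran from -2.87 to 0.087 (tRNA-Thr-CGT 71), -0.049 to 0.20 (tRNA-Val-TAC 48), -0.12 to 0.038 (tRNA-Leu-TAA 58), -0.18 to 0.077 (tRNA-Leu-AAG 57), -0.61 to 0.45 (tRNA-Val-TAC 49), -0.17 to 0.53 (tRNA-Ser-GCT 57), -0.34 to 0.61 (tRNA-Gly-GCC 47) and -0.46 to 0.032 (tRNA-Glu-TTC 48). The largest copy alone gave 0.086 for tRNA-Leu-TAA 58. Without replicate 3 of both genotypes tRNA-Leu-AAG 57, tRNA-Val-TAC 49 and tRNA-Glu-TTC 48 were at 0.12, 0.077 and 0.13. The 5′ share of tRNA-Gly-GCC ran from -0.17 to 1.03 and the background difference from -0.0022 to 0.17. Totals without position 38 differed by 1.11 (tRNA-Asp-GTC), 0.48 (tRNA-Gly-GCC) and 1.76 points (tRNA-Val-AAC), and with fixed weights tRNA-Ser-TGA by -0.12. The cause of these shifts was not tested, beyond the removal of the position itself.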

Other observations

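Alanine tRNAs, the family whose pool share did not overlap between genotypes, held 0.348% ± 0.0483 for wild type against 0.401% ± 0.0197 for the knockout (SD, n = 3). Leucine tRNAs together held 3.71% ± 0.832 and 4.39% ± 0.288, and serine tRNAs 0.795% ± 0.0541 and 0.916% ± 0.167. In both of these families the genotypes overlapped, and no family was tested.

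Of the 23 tested sites at which the genotypes did not overlap, 19 did not pass in edgeR. tRNA-Gly-TCC 49, in the variable-loop window, was at 85.4%, 84.3% and 87.9% in wild type against 80.4%, 82.1% and 77.6% in the knockout (edgeR adjusted p = 0.211, and 0.0281 without replicate 3 of both genotypes). At a minimum of 1% it was also called with the replicate block (edgeR adjusted p = 2.09e-08). tRNA-Leu-CAG 58 was at 48.0% ± 4.09 (SD, n = 3) and 57.8% ± 1.99, and tRNA-Tyr-GTA 65 at 24.0% ± 0.754 and 33.5% ± 1.88 (edgeR adjusted p = 0.521 for both). These 3 sites were picked with their values in view.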
